A study of Caenorhabditis elegans with 18 samples.

Results

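The mir-44 family of Caenorhabditis elegans has 4 named members, mir-44, mir-45, mir-61 and mir-247, which were taken by name from the 176 miRNA names listed in each of 18 small RNA libraries. mir-44 and mir-45 had the same value as each other in each of the 18 libraries and could not be told apart. Their sum is called mir-44/45, so there were 3 measured members among 175 miRNAs. All 3 passed the filter on low counts, as did 139 miRNAs in all. The libraries were made from the total RNA of pelleted whole young adults grown at 25 °C, so each library pools many animals and all their tissues. The 6 genotypes, with 3 libraries each, were the double mutant dpf-3(xe68);alg-1(gk214), alg-1(gk214) alone, the double mutant dpf-3(xe68);alg-2(ok304), alg-2(ok304) alone, dpf-3(xe68) alone and wild type N2 (Bristol). The single mutants carry only the named allele, the doubles carry the same alleles together, and wild type carries none of them. What each allele does to its gene is not given in the labels.

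A miRNA acts only once it is loaded into an Argonaute protein, and an Argonaute also shields its miRNA from decay. In C. elegans most miRNAs are carried by the Argonautes ALG-1 and ALG-2, and DPF-3 is a dipeptidyl peptidase, an enzyme that removes pairs of residues from the start of a protein and is known to trim some germline Argonautes. Members of the mir-44 family share a seed, the stretch at the 5′ end of a miRNA that pairs with its targets, and the same seed is found in miR-279 of Drosophila. The family is known to promote the sperm fate in the germline of the hermaphrodite, and mir-61 is known to be switched on by LIN-12/Notch in vulval precursor cells, where it represses vav-1. The design asks how miRNA levels change when an Argonaute gene is mutated, and whether a dpf-3 mutation alters that change.

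Libraries held between 7.78 and 22.5 M (mega) counts in total, and even mir-247, the rarest member, had 408 counts or more in every library. Levels are in CPM, that is counts scaled by the depth of the library (its total times its TMM factor), with an SD from the 3 libraries of a genotype. Changes are log2 changes with a standard error (SE) from edgeR's quasi-likelihood test over all 18 libraries, and a change is called where its Benjamini-Hochberg adjusted p over 139 miRNAs is below 0.05. Markers of muscle, neurons, glia, intestine, and oocytes and embryos were counted in every library, as whole worms should give. Whether the 3 libraries of a genotype came from separate cultures is not in the labels, and the p-values therefore speak of the spread among these libraries alone, which may be technical. Small RNA data give no level for the mutated genes, so the genotypes could not be checked. A label with a library name was given for 6 libraries, those of alg-2 and its double mutant with dpf-3, and for none of the other 12. Any comparison across these sets may rest on genotype or on set, and the 2 cannot be told apart.

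The members differed widely in abundance. In wild type mir-44/45 had 96312, 100498 and 86638 CPM in the 3 libraries, a mean of 94483 ± 7109 CPM (SD, n = 3), which ranked 3 of 139 miRNAs. mir-61 had 8630, 10705 and 9603 CPM in wild type and ranked 26. mir-247 had 48.7, 37.4 and 37.3 CPM and ranked 97. Mature miRNAs are of nearly equal length, so these levels need no scaling by length, but how evenly different miRNAs were recovered was not measured. Some values are fractions, and how reads that match more than 1 name were counted is not known here. How the reads divide between near relatives of the family is thus uncertain. If mir-44 and mir-45 were each given every read that matches both, their sum counts such reads more than once. The levels, ranks and shares of mir-44/45, and the share of the family, rest on that sum.

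**Figure D1:**
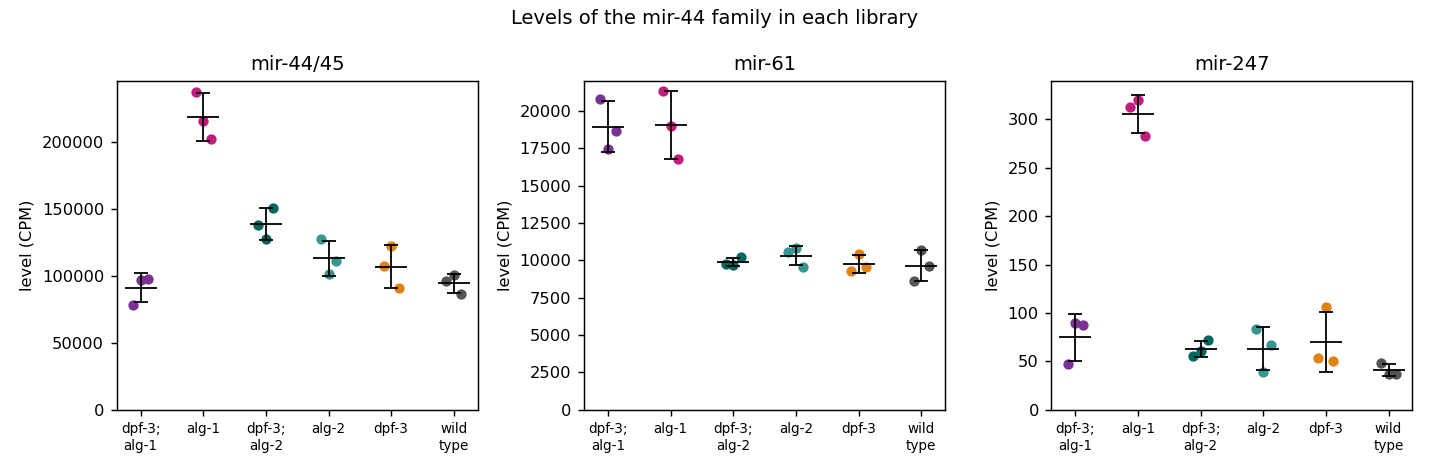
Level in CPM (y axis, linear, from 0) of mir-44/45, mir-61 and mir-247 in each of the 18 libraries, by genotype. Points are libraries, and bars give the mean and SD of 3 libraries. All 3 members stand highest in alg-1, and only mir-61 stands as high in dpf-3;alg-1, at 17416 to 20790 CPM.

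All 3 members rose in alg-1 mutants, and mir-247 by the most. mir-44/45 had 237810, 215899 and 202754 CPM in alg-1, against 96312, 100498 and 86638 CPM in wild type. The alg-1 libraries lay entirely above those of wild type, and mir-44/45, taken as the sum of both names, moved to rank 1 in alg-1 mutants. The log2 change was 1.21 (SE 0.12), or 2.32-fold, with an adjusted p of 5.57e-08 by edgeR. In whole worms more RNA per cell cannot be told apart from more cells that hold the miRNA, here or in any other comparison.

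mir-61 had 21357, 18988 and 16774 CPM in alg-1, against 8630, 10705 and 9603 CPM in wild type. It was higher in every alg-1 library, by 0.98 (SE 0.11) on the log2 scale or 1.97-fold, with an adjusted p of 1.14e-07 by edgeR. mir-247 had 313, 320 and 283 CPM in alg-1, against 48.7, 37.4 and 37.3 CPM in wild type. Its libraries lay far apart, with a log2 change of 2.89 (SE 0.32) or 7.42-fold, an adjusted p of 4.67e-07 by edgeR, and rank 4 among the changes of 139 miRNAs in this comparison.

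Against that background, 42.4% of the 139 miRNAs were called higher in alg-1 than in wild type, so a call as such is common here. The median log2 change of the 3 members was 1.21, beside -0.08 over all 139 miRNAs. With upper quartile factors in place of TMM the median of all miRNAs was 1.07, and 94 were called higher and 25 lower instead of 59 and 58. The members' changes were then 2.38 for mir-44/45, 2.14 for mir-61 and 4.06 for mir-247, all called. Another set of factors shifts all miRNAs nearly alike, so a change relative to the median of all miRNAs hardly moves by construction, and it was 1.30 for mir-44/45, 1.07 for mir-61 and 2.98 for mir-247.

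Markers of other tissues moved in the same comparison. The 8 miRNAs of the mir-35 family, which are made in oocytes and embryos, together held 0.331% to 0.348% of the counts in alg-1 libraries and 11.7% to 13.5% in wild type, and 7 of the 8 fell. All 5 neuronal markers rose, with a summed share of 0.226% ± 0.0362 in alg-1 and 0.123% ± 0.00512 in wild type (SD, n = 3). mir-228, a miRNA of glia, held 1.96% ± 0.0813 of the counts in alg-1 and 0.560% ± 0.0266 in wild type. Of the 2 intestinal markers 1 rose, and the muscle marker mir-1 was not called. Every listed marker had counts in every library. With the mir-35 family taken out of totals and factors, the changes of the members in alg-1 were 1.09 for mir-44/45, 0.86 for mir-61 and 2.77 for mir-247, all still called. The part of the neuronal, glial and intestinal shares in these changes was not tested.

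Adding the dpf-3 mutation to alg-1 split the family. mir-44/45 had 78676, 97252 and 97458 CPM in dpf-3;alg-1, against 237810, 215899 and 202754 CPM in alg-1. Every double mutant library lay below every alg-1 library, and mir-44/45 fell by 1.26 on the log2 scale (SE 0.12), 2.40-fold lower, with an adjusted p of 3.39e-08 by edgeR. mir-247 had 47.1, 89.5 and 87.7 CPM in the double mutant, against 313, 320 and 283 CPM in alg-1. It fell by 2.03 (SE 0.31), 4.09-fold lower, with an adjusted p of 1.96e-05 by edgeR.

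mir-61 was not called in this comparison. It had 20790, 17416 and 18627 CPM in dpf-3;alg-1, against 21357, 18988 and 16774 CPM in alg-1, and the libraries overlapped. The log2 change of mir-61 was -0.0073 (SE 0.10), with an adjusted p of 0.945 by edgeR. Of all 139 miRNAs 41.7% were called lower in this comparison, and the median log2 change was -0.14.

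The value of mir-61 in this comparison depends on the scaling. With upper quartile factors its log2 change was -1.13, with an adjusted p of 5.98e-08 by edgeR, but the median of all miRNAs was then -1.27, and 22 miRNAs were called higher and 101 lower instead of 48 and 58. mir-44/45 was then at -2.38 and mir-247 at -3.14, both called. Relative to the median of all miRNAs, which by construction hardly depends on the factors, mir-61 stood at 0.14 and mir-44/45 at -1.12. Without dpf-3 replicate 2, the library to which TMM scales the others, the log2 change of mir-61 was 0.27, with an adjusted p of 0.0148. Without the mir-35 family in totals and factors it was 0.20, with an adjusted p of 0.0502. The mir-35 family held 4.75% to 9.05% of the counts in dpf-3;alg-1 and 0.331% to 0.348% in alg-1, with 7 of its 8 members higher. The other 1, mir-42, was called lower. Under that change of totals mir-44/45 was still called lower, by -1.05, and mir-247 by -1.82. mir-228 held 0.729% ± 0.107 of the counts in the double mutant and 1.96% ± 0.0813 in alg-1 (SD, n = 3 each), and it fell, as did 2 of the 5 neuronal and both intestinal markers, whose part in the changes was not tested.

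The same double mutant was set against wild type. mir-44/45 had 78676, 97252 and 97458 CPM in dpf-3;alg-1 and 96312, 100498 and 86638 CPM in wild type, and the libraries overlapped. Its log2 change was -0.05 (SE 0.12), with an adjusted p of 0.713 by edgeR. mir-61 stayed above wild type in every library, with a mean of 18944 ± 1709 CPM in the double mutant and 9646 ± 1038 CPM in wild type (SD, n = 3). Its log2 change was 0.97 (SE 0.11), or 1.96-fold, with an adjusted p of 6.88e-07 by edgeR.

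mir-247 had 47.1, 89.5 and 87.7 CPM in dpf-3;alg-1, against 48.7, 37.4 and 37.3 CPM in wild type. One double mutant library lay within the range of wild type. The log2 change was 0.86 (SE 0.31) with an adjusted p of 0.0259 by edgeR, and 25.9% of all miRNAs were called higher in this comparison. This call for mir-247 was lost when any 1 of 4 libraries was left out, with an adjusted p of 0.0793 without wild type replicate 2, 0.0818 without wild type replicate 3, 0.0974 without double mutant replicate 2 and 0.0851 without double mutant replicate 3. The mir-35 family held 4.75% to 9.05% of the counts in the double mutant and 11.7% to 13.5% in wild type. With that family taken out, mir-61 was at 1.06 and mir-247 at 0.95 on the log2 scale, and both were still called. Of the 5 neuronal markers 4 rose as well, with a summed share of 0.221% ± 0.0398 in the double mutant and 0.123% ± 0.00512 in wild type (SD, n = 3). Of the 2 intestinal markers 1 fell, and the part of these markers in the changes was not tested.

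Against dpf-3 alone, the added alg-1 mutation raised mir-61. It had 20790, 17416 and 18627 CPM in dpf-3;alg-1, against 9281, 10415 and 9562 CPM in dpf-3, with no overlap. The log2 change was 0.96 (SE 0.11), with an adjusted p of 5.21e-07 by edgeR. mir-44/45 changed by -0.23 (SE 0.12), with an adjusted p of 0.109, and mir-247 by 0.09 (SE 0.30), with an adjusted p of 0.825, and neither was called. Without dpf-3 replicate 3 mir-44/45 was called lower, at -0.34 with an adjusted p of 0.0268 by edgeR, and with upper quartile factors at -0.51 with an adjusted p of 0.00881, beside a median of -0.27 over all miRNAs. In all, 58.3% of miRNAs were called in either direction between these genotypes. The mir-35 family held 4.75% to 9.05% of the counts in the double mutant and 1.66% to 2.98% in dpf-3, and with it taken out mir-61 was at 1.03 and was still called. Of the 5 neuronal markers 4 rose here too, 1 of the 2 intestinal markers fell, and their part was not tested.

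In an otherwise wild type background, and with TMM factors, the dpf-3 mutation changed no member past the threshold, where 33.8% of all miRNAs were called in either direction. mir-44/45 had 107479, 122589 and 91082 CPM in dpf-3, against 96312, 100498 and 86638 CPM in wild type. The libraries overlapped, and the log2 change was 0.18 (SE 0.12) with an adjusted p of 0.277 by edgeR. mir-61 had 9281, 10415 and 9562 CPM in dpf-3, against 8630, 10705 and 9603 CPM in wild type. Its log2 change was 0.02 (SE 0.10), with an adjusted p of 0.918 by edgeR. All 3 members were called higher with upper quartile factors, mir-44/45 at 0.51 (adjusted p 0.0106), mir-61 at 0.33 (0.0462) and mir-247 at 1.13 (0.0176), beside a median of 0.33 over all miRNAs. The mir-35 family held 1.66% to 2.98% of the counts in dpf-3 and 11.7% to 13.5% in wild type, with all 8 members lower, and mir-228 was higher. With that family taken out of totals and factors no member was called, and the part of mir-228 was not tested.

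mir-247 had 53.7, 106 and 50.2 CPM in dpf-3, against 48.7, 37.4 and 37.3 CPM in wild type. All dpf-3 libraries lay above those of wild type, replicates 1 and 3 by little. The log2 change was 0.77 (SE 0.31), with an adjusted p of 0.0652 by edgeR. It passed the threshold without dpf-3 replicate 3 (adjusted p 0.0365), without dpf-3;alg-1 replicate 1 (adjusted p 0.0362) or without alg-2 replicate 2 (adjusted p 0.0415). It was also called with no composition factor (0.87, adjusted p 0.043) and by DESeq2 (0.70, adjusted p 0.0425). Without dpf-3 replicate 2 it was 0.35, with an adjusted p of 0.362 by edgeR.

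With TMM factors the alg-2 mutation had no called effect on the family, where 45.3% of all miRNAs were called in either direction. mir-44/45 had 127500, 101514 and 110890 CPM in alg-2, against 96312, 100498 and 86638 CPM in wild type. The libraries did not overlap, and the log2 change was 0.26 (SE 0.12) with an adjusted p of 0.0845 by edgeR. mir-61 averaged 10313 ± 661 CPM in alg-2 and 9646 ± 1038 CPM in wild type, and mir-247 63.0 ± 22.2 CPM in alg-2 and 41.1 ± 6.54 CPM in wild type (SD, n = 3 each). Their log2 changes were 0.10 (SE 0.10) and 0.62 (SE 0.31), with adjusted p-values of 0.462 and 0.111 by edgeR. Without alg-2 replicate 2, mir-44/45 (adjusted p 0.0449) and mir-247 (adjusted p 0.0324) were called higher. Under upper quartile factors all 3 members were called higher, mir-44/45 at 1.07 (adjusted p 1.95e-06), mir-61 at 0.91 (2.21e-06) and mir-247 at 1.42 (0.00193). The median of all miRNAs was then 0.87, and 111 miRNAs were called instead of 63. The mir-35 family held 0.398% to 0.495% of the counts in alg-2 and 11.7% to 13.5% in wild type, with all 8 members lower. The muscle marker mir-1, the glial marker mir-228 and 1 of the 5 neuronal markers were higher. With the mir-35 family taken out of totals and factors no member was called, and the part of the other markers was not tested.

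No member was called higher or lower when the dpf-3 mutation was added to alg-2. mir-44/45 had 138341, 127522 and 151168 CPM in dpf-3;alg-2, against 127500, 101514 and 110890 CPM in alg-2. The libraries lay just apart, and the log2 change of 0.30 (SE 0.12) was not called, with an adjusted p of 0.101 by edgeR. mir-61 changed by -0.06 (SE 0.10) and mir-247 by -0.0091 (SE 0.31), with adjusted p-values of 0.798 and 0.991 by edgeR. Here 18.7% of all miRNAs were called in either direction, and 17 miRNAs instead of 26 under a filter of at least 10 CPM in 3 libraries.

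Against wild type, mir-44/45 was higher in dpf-3;alg-2. It had 138341, 127522 and 151168 CPM in the double mutant, against 96312, 100498 and 86638 CPM in wild type. The libraries did not overlap, and the log2 change was 0.56 (SE 0.12), or 1.47-fold, with an adjusted p of 0.00142 by edgeR. mir-61 averaged 9890 ± 296 CPM in the double mutant and 9646 ± 1038 CPM in wild type, and mir-247 62.8 ± 8.42 CPM in the double mutant and 41.1 ± 6.54 CPM in wild type (SD, n = 3 each). Neither was called, with adjusted p-values of 0.792 and 0.122 by edgeR. Both were called with upper quartile factors, mir-61 at 0.90 (adjusted p 2.3e-06) and mir-247 at 1.47 (0.00145), beside a median of 0.96 over all miRNAs. mir-247 was also called in a fit of these genotypes alone, at 0.52 (adjusted p 0.0183). The share of all miRNAs called in either direction was 47.5%. The mir-35 family held 0.440% to 0.466% of the counts in the double mutant and 11.7% to 13.5% in wild type, and with it taken out mir-44/45 was at 0.49 and was still called. The muscle marker mir-1 and the glial marker mir-228 rose in the same comparison, and 1 of the 5 neuronal markers fell. mir-1 held 18.5% ± 1.17 of the counts in the double mutant and 15.1% ± 1.09 in wild type (SD, n = 3 each). The part of these markers was not tested.

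mir-44/45 was also higher in dpf-3;alg-2 than in dpf-3. It had 138341, 127522 and 151168 CPM in the double mutant, against 107479, 122589 and 91082 CPM in dpf-3, with no overlap. The log2 change was 0.38 (SE 0.12), with an adjusted p of 0.0267 by edgeR, among 29.5% of miRNAs called in either direction. That call was lost without dpf-3 replicate 1 (adjusted p 0.0566), dpf-3 replicate 2 (0.052), dpf-3 replicate 3 (0.125), double mutant replicate 1 (0.0503) or double mutant replicate 3 (0.109). With a replicate block within each library set it was 0.48, with an adjusted p of 0.0645, and that fit called 15 miRNAs instead of 41. Without dpf-3 replicate 2 the number called was 23. The call for mir-44/45 was also lost with no composition factor (0.27, adjusted p 0.152), with the filter of at least 10 CPM (0.34, 0.0576) and in a fit of these genotypes alone (0.36, 0.0767). The mir-35 family held 0.440% to 0.466% of the counts in the double mutant and 1.66% to 2.98% in dpf-3, with 7 of its 8 members lower, and with it taken out mir-44/45 was at 0.30 and no longer called (adjusted p 0.0609). Of the 5 neuronal markers 1 was lower and of the 2 intestinal markers 1 was higher, and their part was not tested. mir-61 changed by 0.02 (SE 0.10) and mir-247 by -0.15 (SE 0.31), with adjusted p-values of 0.921 and 0.762 by edgeR. mir-61 was called with upper quartile factors, at 0.57 (adjusted p 0.000805), beside a median of 0.58 over all miRNAs.

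The effect of the dpf-3 mutation on mir-44/45 and mir-247 differed between backgrounds by a direct test. For mir-44/45 the effect in alg-1 minus the effect in wild type was -1.44 (SE 0.17), with an adjusted p of 9.32e-07 by edgeR. For mir-247 the same difference was -2.80 (SE 0.44), with an adjusted p of 2.83e-05 by edgeR. For mir-61 it was -0.02 (SE 0.15), with an adjusted p of 0.903 by edgeR. Of all 139 miRNAs 40.3% were called lower in this contrast and 40 miRNAs higher, and the median was -0.23. With upper quartile factors mir-61 was called as well, at -1.46 with an adjusted p of 2.38e-07, and mir-44/45 was at -2.89 and mir-247 at -4.27. The median of all miRNAs was then -1.67, and 104 miRNAs were called lower instead of 56.

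Markers differed in the same contrast. The effect of the dpf-3 mutation was higher in alg-1 than in wild type for 7 of the 8 members of the mir-35 family, and lower for 3 of the 5 neuronal markers, the glial marker mir-228 and 1 of the 2 intestinal markers. With the mir-35 family taken out of totals and factors the differences were -1.24 for mir-44/45 and -2.58 for mir-247, both still called. The part of the other markers was not tested.

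Set against the effect in alg-2, the effect in alg-1 differed by -1.56 (SE 0.17) for mir-44/45 and by -2.02 (SE 0.43) for mir-247, with adjusted p-values of 3.96e-07 and 0.000598 by edgeR. The median of all 139 miRNAs was -0.17, and 35.3% were called lower and 43 miRNAs higher. For mir-61 this difference was 0.05 (SE 0.15), with an adjusted p of 0.745. It was 0.30, with an adjusted p of 0.0455, without the mir-35 family in the totals, and 0.35, with an adjusted p of 0.0247, without dpf-3 replicate 2. With upper quartile factors it was -1.11, with an adjusted p of 1.36e-05, beside a median of -1.33 over all miRNAs. Among the markers, 7 of the 8 mir-35 family members were higher and 1 lower in this contrast, and 1 of the 5 neuronal markers, mir-228 and 1 of the 2 intestinal markers were lower. Without the mir-35 family mir-44/45 was at -1.31 and mir-247 at -1.78, both still called, and the part of the other markers was not tested.

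Between alg-2 and wild type the effect of the dpf-3 mutation did not differ past the threshold for any member. The differences were 0.11 (SE 0.17) for mir-44/45, -0.08 (SE 0.15) for mir-61 and -0.78 (SE 0.43) for mir-247. Their adjusted p-values were 0.640, 0.733 and 0.182 by edgeR. Of all miRNAs 28.1% were called in either direction, 39 in number, which was 18 without wild type replicate 1 and 22 without alg-2 replicate 1.

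**Figure D2:**
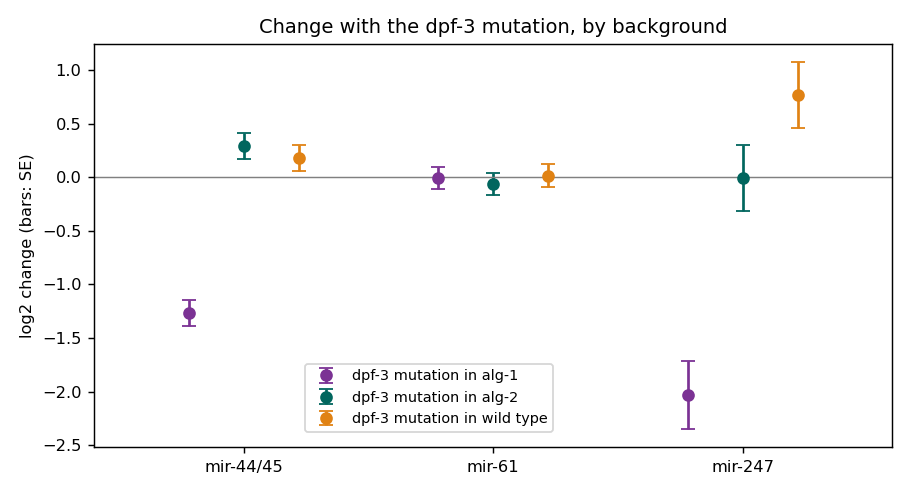
Log2 change that came with the dpf-3 mutation (y axis, bars give the SE) for each member in 3 backgrounds. In alg-1 the points are at -1.26 for mir-44/45, -0.0073 for mir-61 and -2.03 for mir-247, and in alg-2 and wild type none of the members fell past the threshold.

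The Argonaute mutants were also compared with each other. mir-44/45 had 237810, 215899 and 202754 CPM in alg-1, against 127500, 101514 and 110890 CPM in alg-2, a log2 change of 0.95 (SE 0.12) with an adjusted p of 1.12e-06 by edgeR. mir-61 had 21357, 18988 and 16774 CPM in alg-1, against 10586, 10793 and 9560 CPM in alg-2, a change of 0.88 (SE 0.11) with an adjusted p of 4.24e-07. mir-247 had 313, 320 and 283 CPM in alg-1, against 83.4, 39.3 and 66.4 CPM in alg-2, a change of 2.27 (SE 0.32) with an adjusted p of 5.74e-06. All 3 members were thus called higher in alg-1, and their libraries did not overlap. The share of all miRNAs called higher in this comparison was 41.7%. The 5 neuronal markers and mir-228 were higher in alg-1 as well, and the muscle marker mir-1 was lower. Of the 2 intestinal markers 1 was higher and 1 lower, and of the 8 mir-35 family members 1 was higher and 2 were lower. The part of these markers was not tested.

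Between the double mutants the family split again, where 63.3% of all miRNAs were called in either direction. mir-44/45 had 78676, 97252 and 97458 CPM in dpf-3;alg-1, against 138341, 127522 and 151168 CPM in dpf-3;alg-2. It was lower in the double mutant with alg-1, by -0.61 (SE 0.12) with an adjusted p of 0.000287 by edgeR. mir-61 had 20790, 17416 and 18627 CPM in dpf-3;alg-1, against 9755, 9685 and 10229 CPM in dpf-3;alg-2. It was higher there, by 0.94 (SE 0.11) with an adjusted p of 7.53e-07, but with upper quartile factors by 0.12 with an adjusted p of 0.436, beside a median of -0.90 over all miRNAs. mir-247 changed by 0.25 (SE 0.31) and was not called, with an adjusted p of 0.501. The mir-35 family held 4.75% to 9.05% of the counts in dpf-3;alg-1 and 0.440% to 0.466% in dpf-3;alg-2, and with it taken out mir-44/45 was at -0.45 and mir-61 at 1.09, both still called. All 5 neuronal markers were higher and 1 of the 2 intestinal markers was lower in dpf-3;alg-1, and their part was not tested.

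Ordered by mean level, mir-44/45 was lowest in dpf-3;alg-1 and then came wild type, dpf-3, alg-2, dpf-3;alg-2 and alg-1. Each genotype overlapped the next up to alg-2. The libraries of dpf-3;alg-2 began at 127522 CPM, just above the highest of alg-2 at 127500 CPM, and alg-1 stood clear of dpf-3;alg-2. mir-61 had 4 genotypes with overlapping libraries between 8630 and 10793 CPM, and then a gap, above which dpf-3;alg-1 and alg-1 overlapped at 16774 to 21357 CPM. mir-247 was lowest on average in wild type, whose libraries at 37.3 to 48.7 CPM stood just below those of dpf-3;alg-2. A library of alg-2 at 39.3 CPM and a library of dpf-3;alg-1 at 47.1 CPM lay within the range of wild type. The 4 mutants other than alg-1 overlapped each other in sequence up to 106 CPM. Only alg-1 stood clear of them, at 283 CPM or more.

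Together the members held 11.6% ± 1.72 of the counts in dpf-3;alg-1, 22.1% ± 0.561 in alg-1, 14.7% ± 1.44 in dpf-3;alg-2, 12.3% ± 1.18 in alg-2, 12.4% ± 1.91 in dpf-3 and 10.3% ± 0.480 in wild type (SD, n = 3 each). mir-61 made up 17.4% ± 3.08 of the family's counts in dpf-3;alg-1, between 6.66% and 8.42% on average in the other 4 mutants and 9.27% ± 0.928 in wild type (SD, n = 3 each).

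A ratio of counts within a library does not depend on scaling. Per 1000 counts of mir-44/45 there were 264, 179 and 191 of mir-61 in dpf-3;alg-1, against 89.8, 87.9 and 82.7 in alg-1. All double mutant libraries lay above all alg-1 libraries, with a ratio 2.40-fold higher (log2 1.26, SE 0.18). In wild type the ratio was 89.6, 107 and 111 per 1000, so that the double mutant stood 2.04-fold above it. A two-sided exact permutation test gave p = 0.1 for both, the smallest that 3 libraries against 3 allow, and an adjusted p of 0.175 over 42 tests of ratios.

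In dpf-3;alg-2 this ratio was low. There were 70.5, 75.9 and 67.7 counts of mir-61 per 1000 of mir-44/45, against 83.0, 106 and 86.2 in alg-2 and 89.6, 107 and 111 in wild type. The libraries of the double mutant lay below both, at 0.781 and 0.700 of those ratios (exact permutation p = 0.1 each, adjusted p = 0.175). In alg-1 the ratio was 0.852 of that in wild type, and the libraries overlapped (exact permutation p = 0.2, adjusted p = 0.290).

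The ratio of mir-247 to mir-44/45 was highest in alg-1. Per 1000 counts of mir-44/45 there were 1.31, 1.48 and 1.40 of mir-247 in alg-1, against 0.506, 0.372 and 0.431 in wild type. The ratio was 3.23-fold higher and did not overlap (log2 1.69, SE 0.14, exact permutation p = 0.1, adjusted p = 0.175). In dpf-3;alg-1 the ratio was 0.599, 0.921 and 0.901 per 1000, below all alg-1 libraries and above all wild type libraries. It was 0.567 of the ratio in alg-1 and 1.83-fold that in wild type (exact permutation p = 0.1 each, adjusted p = 0.175).

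**Figure D3:**
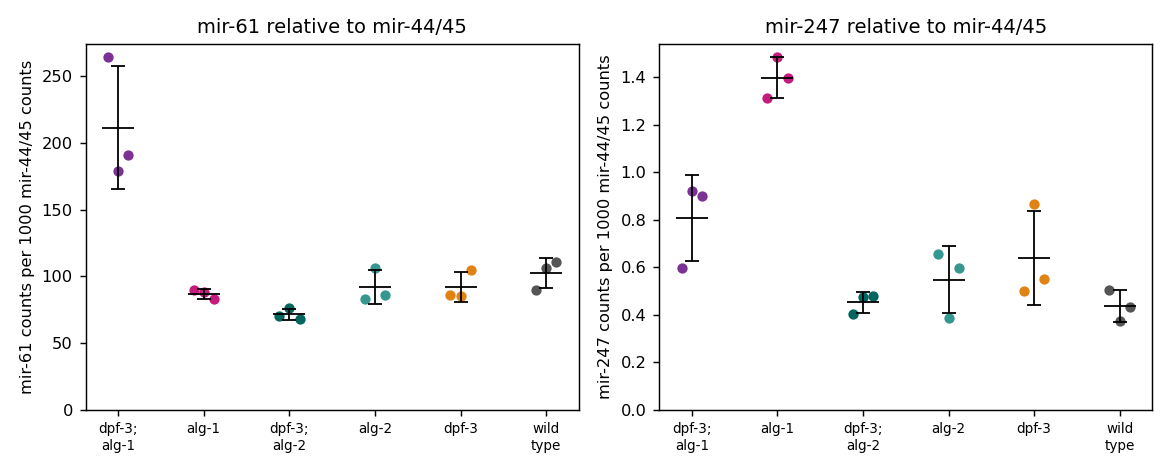
Counts of mir-61 (left) and of mir-247 (right) per 1000 counts of mir-44/45 in each library (y axes linear, from 0), by genotype, with mean and SD of 3 libraries. For mir-61 only dpf-3;alg-1 stands apart upwards, at 179 to 264, and for mir-247 alg-1 is highest, at 1.31 to 1.48.

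In the RefSeq annotation of WBcel235 most members have another miRNA gene within 1000 bases on the same strand. miRNAs spaced so closely are often cut from a shared transcript. mir-44 lies by mir-42 and mir-43, mir-61 by mir-250, and mir-247 by mir-797. mir-45 has no such neighbour and overlaps ZK930.13, a noncoding gene, and no member lies within a protein-coding gene. The files name no genome build, so positions are not given. mir-42 belongs to the mir-35 family.

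The neighbour of mir-61 also rose in alg-1, and it fell in the double mutant. mir-250 had 1552, 1251 and 1216 CPM in dpf-3;alg-1, 2028, 1932 and 1884 CPM in alg-1, and 708, 635 and 628 CPM in wild type. The 3 genotypes did not overlap. mir-250 was higher in alg-1 than in wild type by 1.57 (SE 0.11, adjusted p 4.50e-10 by edgeR), and in the double mutant it was lower than in alg-1 by -0.54 (SE 0.11, adjusted p 0.000197), which left it 1.03 (SE 0.11) above wild type. There were 14.2 counts of mir-61 per count of mir-250 in dpf-3;alg-1, 9.75 in alg-1 and 14.8 in wild type.

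mir-797, the neighbour of mir-247, also rose in alg-1 and fell in the double mutant. It had 12.5, 18.3 and 19.95 CPM in dpf-3;alg-1, 102, 120 and 120 CPM in alg-1, and 11.4, 6.41 and 9.22 CPM in wild type. It was higher in alg-1 than in wild type by 3.66 (SE 0.35, adjusted p 7.20e-08 by edgeR) and in the double mutant it was lower than in alg-1 by -2.76 (SE 0.34, adjusted p 1.55e-06). mir-247 had 4.33 counts per count of mir-797 in dpf-3;alg-1, 2.70 in alg-1 and 4.70 in wild type.

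The neighbours of mir-44 are far rarer than mir-44/45 and were called lower in mutants where mir-44/45 was not. mir-44/45 is the sum of mir-44 and mir-45, and mir-45 has no such neighbour, so these neighbours could not be compared with mir-44 alone. mir-43 had 11.98, 13.2 and 11.9 CPM in dpf-3;alg-1, 58.7, 78.2 and 69.6 CPM in alg-1, and 18.7, 17.4 and 18.4 CPM in wild type. It was higher in alg-1 than in wild type by 1.92 (SE 0.17, adjusted p 5.68e-09 by edgeR), and it was lower than in wild type by -0.55 (SE 0.17) in dpf-3;alg-1, -1.25 (SE 0.18) in dpf-3;alg-2, -0.96 (SE 0.17) in alg-2 and -1.11 (SE 0.17) in dpf-3. mir-44/45 was not called lower than wild type in any of these. Each of those 4 differences of mir-43 was called, with adjusted p-values from 2.16e-05 to 0.00997. mir-42 had a log2 change of 0.35 (SE 0.39) in alg-1 against wild type, with an adjusted p of 0.404, and was called lower than wild type in the other 4 mutants, by -1.16 to -1.50. In dpf-3;alg-1 against alg-1 both neighbours were called lower, as mir-44/45 was at -1.26. There mir-43 changed by -2.48 (SE 0.17, adjusted p 6.05e-10 by edgeR) and mir-42 by -1.55 (SE 0.40, adjusted p 0.00202).

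For the ratios of mir-61 to mir-250, mir-247 to mir-797 and mir-44/45 to mir-43, alg-1 lay below wild type and dpf-3;alg-1 lay above alg-1, with no overlap of libraries (exact permutation p = 0.1 each, adjusted p = 0.175 over the 42 ratio tests). For mir-44/45 over mir-43 the ratio was 7350 in dpf-3;alg-1, 3242 in alg-1 and 5203 in wild type. For mir-44/45 over mir-42 the order differed, with 373 in dpf-3;alg-1, 289 in alg-1 and 164 in wild type. There alg-1 lay 1.79-fold above wild type and dpf-3;alg-1 lay 1.26-fold above alg-1, again with no overlap (exact permutation p = 0.1 each, adjusted p = 0.175).

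**Figure D4:**
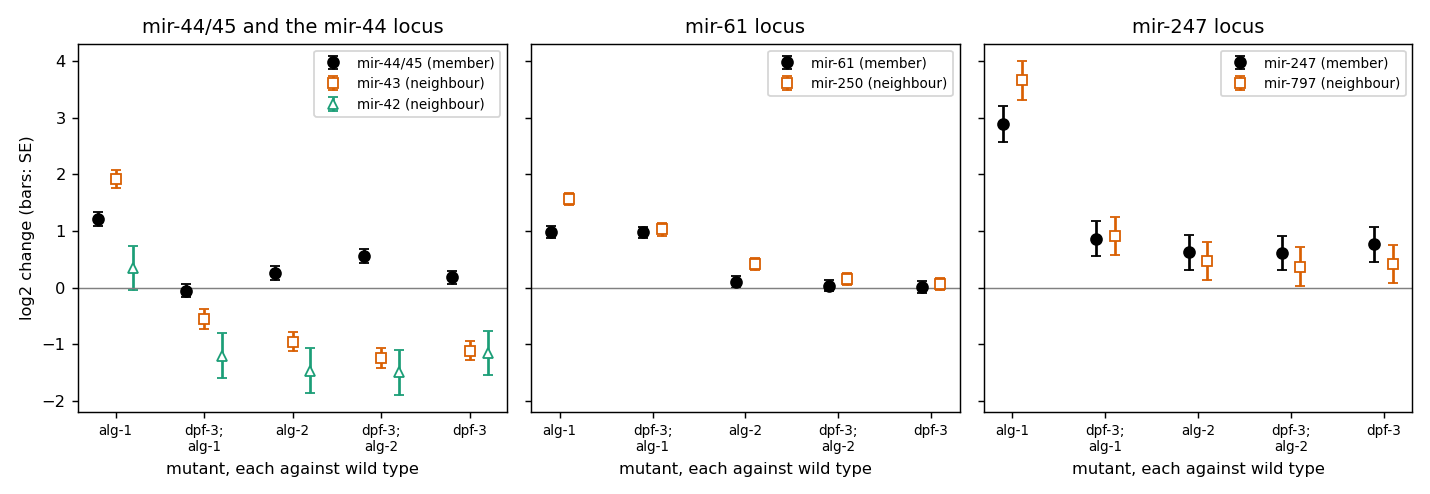
Log2 change against wild type (y axis, bars give the SE) of each member and of its neighbours in the 5 mutants (x axis). mir-43 and mir-42 are neighbours of mir-44 and not of mir-45. In alg-1 mir-250, mir-797 and mir-43 stand above their members, at 1.57, 3.66 and 1.92, whereas mir-42 at 0.35 stands below mir-44/45 at 1.21, and in the other mutants mir-43 and mir-42 stand below wild type, where mir-44/45 was not called lower.

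Likeness of profiles was measured as the root mean square difference of mean log2 CPM over the 6 genotypes, after each miRNA was centred on its own mean, among 112 other miRNAs with at least 10 CPM on average. The miRNAs most like mir-44/45 were mir-2 at 0.13, mir-67 at 0.15 and mir-76 at 0.16, beside a median of 0.60 over all 112. For mir-61 they were mir-51 at 0.14, mir-793 at 0.14 and lsy-6 at 0.21, beside a median of 0.65. For mir-247 they were mir-251 at 0.19, mir-228 at 0.33 and mir-53 at 0.36, beside a median of 1.02. mir-793 and lsy-6, a miRNA that sets left and right identity in a pair of taste neurons, are among the neuronal markers, and mir-228 is the glial marker. The same 9 miRNAs were found with RLE factors.

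In dpf-3;alg-1 against alg-1 the 3 most like mir-44/45 were called lower, mir-2 by -0.96 (SE 0.10), mir-67 by -1.09 (SE 0.14) and mir-76 by -1.10 (SE 0.12). The 3 most like mir-61 were not called, with mir-51 at -0.24 (SE 0.16), mir-793 at 0.07 (SE 0.12) and lsy-6 at -0.26 (SE 0.18). They were chosen for their likeness over these genotypes, so these values describe them and test nothing.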

How the data were processed

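Small RNA was sequenced from 18 libraries of young adult worms, prepared by a NEBNext kit with a cut of the miRNA band from a gel, per the labels' protocols. The authors deposited, for each library, expected counts per miRNA name, not normalized. Bowtie 0.12.7 is named by the submitters' processing notes. Not given in the sources used here are the build of the genome, the annotation and how reads were shared out. Column 5 of each file was used, which is the sum of columns 3 and 4, whose meaning is not stated. In each library 75% to 86.9% of values were whole numbers within 1e-06. No sequences are printed.

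mir-44 and mir-45 were summed, and the expected counts were rounded to whole numbers. Testing used edgeR 4.0.16 in R 4.3.3 (robust quasi-likelihood fit, TMM factors from 0.876 to 1.10, filterByExpr with a minimum count of 10 and a minimum total of 15, all libraries, genotype as the term, 12 residual degrees of freedom), with 11 contrasts of 2 genotypes and 3 of differences. The SE comes from the change and its F statistic. The common biological coefficient of variation was 14.0%. The procedure was tested on simulated data. Ratios used a prior count of 0.5 and exact permutation tests over libraries. Named were all members, their neighbours, and the 3 most alike miRNAs per member. The members and lists were chosen with earlier results of these data known.

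Replicate numbers recur between genotypes. The correlation of deviations between libraries of the same number was over 0.1 for every number in 3 of the 11 pairs of genotypes, and ranged from -0.383 to 0.404. No library repeated another of its genotype within sampling noise. As alternatives, the fits were repeated with DESeq2 1.42.0 and limma-voom (limma 3.58.1), with RLE factors, upper quartile factors or none, with 2 further filters, subsets of libraries, replicate blocks, totals without the mir-35 family or the members, mir-44 alone, and leaving out each library.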

Additional observations from a re-analysis of the deposited data

Results flagged for a closer look

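The effect of the dpf-3 mutation differed between backgrounds by a test of the difference itself for 2 of the 3 members. Such calls were common among all 139 miRNAs. For alg-1 minus wild type 40 were called higher and 56 lower. For alg-1 minus alg-2 the numbers were 43 higher and 49 lower. For mir-247 the effect in alg-1 minus that in wild type was -2.80 on the log2 scale (SE 0.44, adjusted p 2.83e-05 by edgeR's quasi-likelihood test), and for mir-44/45 it was -1.44 (SE 0.17, adjusted p 9.32e-07). Set against the effect in alg-2, the effect in alg-1 differed by -2.02 (SE 0.43, adjusted p 0.000598) for mir-247 and -1.56 (SE 0.17, adjusted p 3.96e-07) for mir-44/45. The comparison with alg-2 crosses the sets of libraries named in the opening description, though each dpf-3 effect in it was measured within a single set.

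Small counts also differed in a column that no comparison above used by itself, and the difference was not tested. The meaning of column 4 of the files is not stated, and for mir-44 it held 12, 11 and 6 counts in the alg-1 libraries, against 0, 1 and 2 counts in wild type. As a share of the row's counts this was 5.36 ppm or more in every alg-1 library, against at most 2.64 ppm in wild type. In dpf-3;alg-1 and dpf-3;alg-2 it held 0 counts in all 6 libraries. Counts this few give unsteady shares. For mir-61, 1 count in wild type replicate 2 was 5.60 ppm of its row, and 2 counts in dpf-3 replicate 1 were 11.8 ppm.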

How the results depend on the processing

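Of 42 results on the members, 19 were called. Calls were common among all 139 miRNAs, from 26 in dpf-3;alg-2 against alg-2 to 117 in alg-1 against wild type. The number of calls thus does not by itself set the members apart. Of the 19, 16 were called in the same direction under every other setting tried and whichever library was left out. The exceptions are mir-247 in dpf-3;alg-1 against wild type, mir-44/45 in dpf-3;alg-2 against dpf-3, and mir-61 between the double mutants. The upper quartile setting moves the median of all miRNAs, and the cause of the other changes below was not tested. mir-247 had the fewest counts, 408 to 3969.5 in a library, and the widest SEs of the members, 0.30 to 0.32 between genotypes, against 0.10 to 0.12 for the others. Values are log2 changes unless said otherwise.

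With upper quartile factors, dpf-3 against wild type was called for mir-44/45 (0.51), mir-61 (0.33) and mir-247 (1.13), and alg-2 against wild type for mir-44/45 (1.07), mir-61 (0.91) and mir-247 (1.42), with medians of all miRNAs of 0.33 and 0.87. mir-61 was then called at -1.13 in dpf-3;alg-1 against alg-1, 0.90 in dpf-3;alg-2 against wild type, 0.57 in dpf-3;alg-2 against dpf-3, -1.46 for the dpf-3 effect in alg-1 minus that in wild type and -1.11 minus that in alg-2, and not called between the double mutants (0.12). mir-44/45 was called in dpf-3;alg-1 against dpf-3 (-0.51), and its dpf-3 effect in alg-2 minus that in wild type was -0.16. mir-247 was called in dpf-3;alg-2 against wild type (1.47) and was not called at -0.22 in dpf-3;alg-1 against dpf-3, 0.053 in dpf-3;alg-2 against alg-2, 0.34 in dpf-3;alg-2 against dpf-3 and -0.55 between the double mutants.

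mir-61 changed sign around small values, and was uncalled except where said. In dpf-3 against wild type it was -0.043 with RLE factors, -0.046 with the 10 CPM filter and -0.044 with DESeq2. In dpf-3;alg-1 against alg-1 it was 0.17 with no composition factor, 0.14 with the 10 CPM filter, 0.16 in a fit of these genotypes alone and 0.20 without the mir-35 family. In dpf-3;alg-2 against wild type it was -0.054 with RLE factors and with DESeq2, -0.067 with the 10 CPM filter, -0.049 in a fit of these genotypes and -0.032 without the mir-35 family. In dpf-3;alg-2 against dpf-3 it was -0.011 with RLE factors and with DESeq2, -0.086 with no composition factor, -0.021 with the 10 CPM filter, -0.0025 in a fit of these genotypes and -0.058 without the mir-35 family. For the dpf-3 effect in alg-1 minus that in wild type it was 0.050 with no composition factor, 0.18 with the 10 CPM filter and 0.18 without the mir-35 family. For the effect in alg-1 minus that in alg-2 it was called at 0.30 without the mir-35 family, and was -0.076 with totals without the members.

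mir-44/45 in dpf-3;alg-1 against wild type was 0.042 with no composition factor, 0.0044 with no low count filter, 0.037 without the mir-35 family and 0.0047 with totals without the members, all uncalled. In dpf-3;alg-2 against dpf-3 it was no longer called with no composition factor (0.27), the 10 CPM filter (0.34), a fit of these genotypes alone (0.36) or without the mir-35 family (0.30). mir-247 in dpf-3 against wild type was called with no composition factor (0.87) and DESeq2 (0.70), and in dpf-3;alg-2 against wild type in a fit of these genotypes alone (0.52). In dpf-3;alg-2 against alg-2 it was 0.027 with limma-voom. The family held 11.8% of the counts of wild type when the mir-35 family was left out of the totals.

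The replicate block over all libraries changed no call of a member. With a replicate block within each library set, mir-44/45 in dpf-3;alg-2 against dpf-3 was no longer called (0.48), and mir-247 was 0.044 in dpf-3;alg-2 against alg-2, 0.21 in dpf-3;alg-2 against dpf-3 and -0.088 between the double mutants, none of them called. That block called 36 miRNAs instead of 63 in alg-2 against wild type, 39 instead of 66 in dpf-3;alg-2 against wild type and 15 instead of 41 in dpf-3;alg-2 against dpf-3. With upper quartile factors these numbers were 111, 118 and 105.

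Leaving out each library in turn gave these ranges. mir-61 ranged from -0.058 to 0.097 in dpf-3 against wild type, -0.091 to 0.27 in dpf-3;alg-1 against alg-1, -0.077 to 0.12 in dpf-3;alg-2 against wild type, -0.060 to 0.035 in dpf-3;alg-2 against dpf-3, -0.11 to 0.28 for the dpf-3 effect in alg-1 minus that in wild type and -0.030 to 0.35 minus that in alg-2. mir-44/45 ranged from -0.11 to 0.043 in dpf-3;alg-1 against wild type, -0.34 to -0.14 in dpf-3;alg-1 against dpf-3, 0.17 to 0.34 in alg-2 against wild type and 0.27 to 0.44 in dpf-3;alg-2 against dpf-3. mir-247 ranged from 0.35 to 0.96 in dpf-3 against wild type, 0.71 to 1.11 in dpf-3;alg-1 against wild type, -0.097 to 0.51 in dpf-3;alg-1 against dpf-3, 0.37 to 0.87 in alg-2 against wild type, -0.25 to 0.25 in dpf-3;alg-2 against alg-2 and -0.35 to 0.15 in dpf-3;alg-2 against dpf-3. Among log2 ratios, mir-247 over mir-44/45 ranged from -0.051 to 0.17 in dpf-3;alg-2 against wild type, mir-44/45 over mir-42 from -0.079 to 0.60 in dpf-3;alg-2 against alg-2, mir-61 over mir-250 from -0.18 to 0.058 in dpf-3 against wild type and -0.18 to 0.055 in dpf-3;alg-1 against wild type, and mir-247 over mir-797 from -0.21 to 0.053 in dpf-3;alg-1 against wild type and -0.12 to 0.17 in dpf-3;alg-2 against alg-2.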
